A study of Mus musculus with 3 samples.

Results

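Inducible effector genes of the macrophage, 6 in all, were examined for binding of NUR77, an orphan nuclear receptor of the NR4A family: the cytokine genes Il6, Il12b and Il10 and the enzyme genes Nos2, Ptgs2 and Irg1 (named Acod1 in RefSeq). A peak was counted for a gene if its centre lay in a window of 170 to 200 kb, on mouse build mm9: chromosome 5 at 30.25 to 30.43 Mb for Il6, chromosome 11 at 44.12 to 44.32 Mb for Il12b, chromosome 1 at 132.83 to 133 Mb for Il10, chromosome 11 at 78.65 to 78.85 Mb for Nos2, chromosome 1 at 151.86 to 152.03 Mb for Ptgs2, and chromosome 14 at 103.35 to 103.55 Mb for Irg1. The 6 windows span 1120 kb and held 87 of the 52946 peaks of the 3 replicates: 12 of 6777 in replicate 1, 62 of 37307 in replicate 2 and 13 of 8862 in replicate 3. Peaks of different replicates that overlapped by at least 1 bp were joined into regions, which gave 64 regions in the windows out of 38463. Of the 64, 15 were seen in 2 or more replicates, and 8 of those 15 in all 3.

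The samples were 3 replicates of RAW264.7, a mouse macrophage line, stably carrying pINDUCER20b-HA-NUR77, which expresses HA-tagged NUR77 when doxycycline is added. All 3 received 1 µg/mL doxycycline for 18 hours, in 6 dishes per replicate, and chromatin was pulled down with an anti-HA antibody after cross-linking with both disuccinimidyl glutarate and formaldehyde. Peaks therefore come from anti-HA pull-down in cells that overexpress the tagged protein. No inflammatory stimulus is named in the labels, and whether the line is 1 clone is not given. No uninduced, untagged or control-antibody sample was analysed here, so the comparisons are between replicates, between windows and with the rest of the genome, and no test between conditions was possible. For the same reason, no single peak could be told apart from signal that does not depend on the tagged protein.

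NUR77 binds DNA as a monomer at the NBRE, an octamer that extends the nuclear receptor core motif by a pair of adenines, and as a dimer at paired sites. Its own gene is switched on rapidly by inflammatory stimuli in macrophages. The 6 genes are themselves induced by Toll-like receptor ligands. Interleukin 6 drives the acute-phase response, Il12b encodes the p40 subunit of the interleukins 12 and 23, and interleukin 10 restrains macrophage activation. Nos2 makes nitric oxide, Ptgs2 (cyclooxygenase 2) makes prostaglandin precursors, and Irg1 decarboxylates the tricarboxylic acid cycle intermediate cis-aconitate to itaconate. The study's title concerns NUR77 in inflammation and mitochondrial metabolism.

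No annotation or sequence of mm9 was used here, so peaks are given by position and are not placed at a promoter, intron or untranslated region, or assigned to a gene. Each window can also hold neighbouring genes. In the RefSeq gene table of GRCm38.p6, protein-coding genes next to the members include Dnajb6 and Tyms for Il6, Adra1b and Ublcp1 for Il12b, Il19 and Mapkapk2 for Il10, Lyrm9 and Lgals9 for Nos2, and Pla2g4a and Pdc for Ptgs2. Only gene order was read there, so whether any of these neighbours lies inside a window is not known. Pla2g4a releases the arachidonic acid that Ptgs2 uses, and Il19 is a relative of Il10, and no peak can be assigned to a member or a neighbour here.

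RefSeq promoters of GRCm38.p6, 300 bases from 250 before to 50 after the start, were at hand for 4 members: Il6, Il12b, Ptgs2 and Irg1. The 250 bases before the start are shown for Il6, whose window held the most regions of all 3 replicates, and for Irg1, whose window held 5 regions of at least 2, the most by the overlap rule used here though not by most alternatives. They cannot be placed against the mm9 peaks. Capitals mark the matches to the motifs searched, AP-1 in Il6 and the nuclear receptor core motif in Irg1. The Il6 stretch is chr5:30012864-30013113 and the Irg1 stretch is chr14:103046762-103047011, both on the plus strand.
Il6: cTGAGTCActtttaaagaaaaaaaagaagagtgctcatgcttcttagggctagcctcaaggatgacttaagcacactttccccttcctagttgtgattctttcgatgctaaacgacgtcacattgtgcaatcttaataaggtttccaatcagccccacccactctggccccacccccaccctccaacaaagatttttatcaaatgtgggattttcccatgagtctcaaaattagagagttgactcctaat
Irg1: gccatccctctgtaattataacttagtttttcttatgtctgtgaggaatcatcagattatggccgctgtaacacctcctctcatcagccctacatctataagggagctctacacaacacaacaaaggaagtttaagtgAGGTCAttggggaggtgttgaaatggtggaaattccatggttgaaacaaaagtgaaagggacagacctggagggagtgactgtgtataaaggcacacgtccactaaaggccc

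The NBRE (AAAGGTCA) was searched on both strands and was found in 0 of the 4 promoters and in 1.52% of all 32544 distinct promoters of that length. The letters TGANTCA, bound by AP-1, were found in Il6, 249 bases before the start, and in 7.79% of all promoters. The PU.1 letters GAGGAAGT (3.11% of promoters) and the cyclic AMP response element TGACGTCA (1.80%) were in none of the 4. The core motif AGGTCA, which forms the end of the NBRE and was added after the promoters had been seen, was found in Irg1, 112 bases before the start, and in 16.2% of promoters. A match is only a description of these letters, and its absence says nothing about binding elsewhere.

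The windows fell into a pair with peaks of replicate 2 alone, Il12b and Nos2, and 4 with peaks of every replicate, Il6, Il10, Ptgs2 and Irg1. Replicate 1 had a peak in 4 of the 6 windows, replicate 3 in the same 4 and replicate 2 in all 6. Over the nuclear genome cut into 13262 tiles of 200 kb, 25.8% of tiles held a replicate 1 peak, 55.5% a replicate 2 peak and 30.2% a replicate 3 peak. A region of at least 2 replicates was present in 4 of the 6 windows and in 31.9% of tiles, and a region of all 3 was present in 4 windows and in 21.4% of tiles. The tiles include gene-poor and unmappable sequence, and the windows lie at genes that were picked with earlier results of these data known. Among tiles with a peak of any replicate, 57.4% held a region of at least 2.

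**Figure D1:**
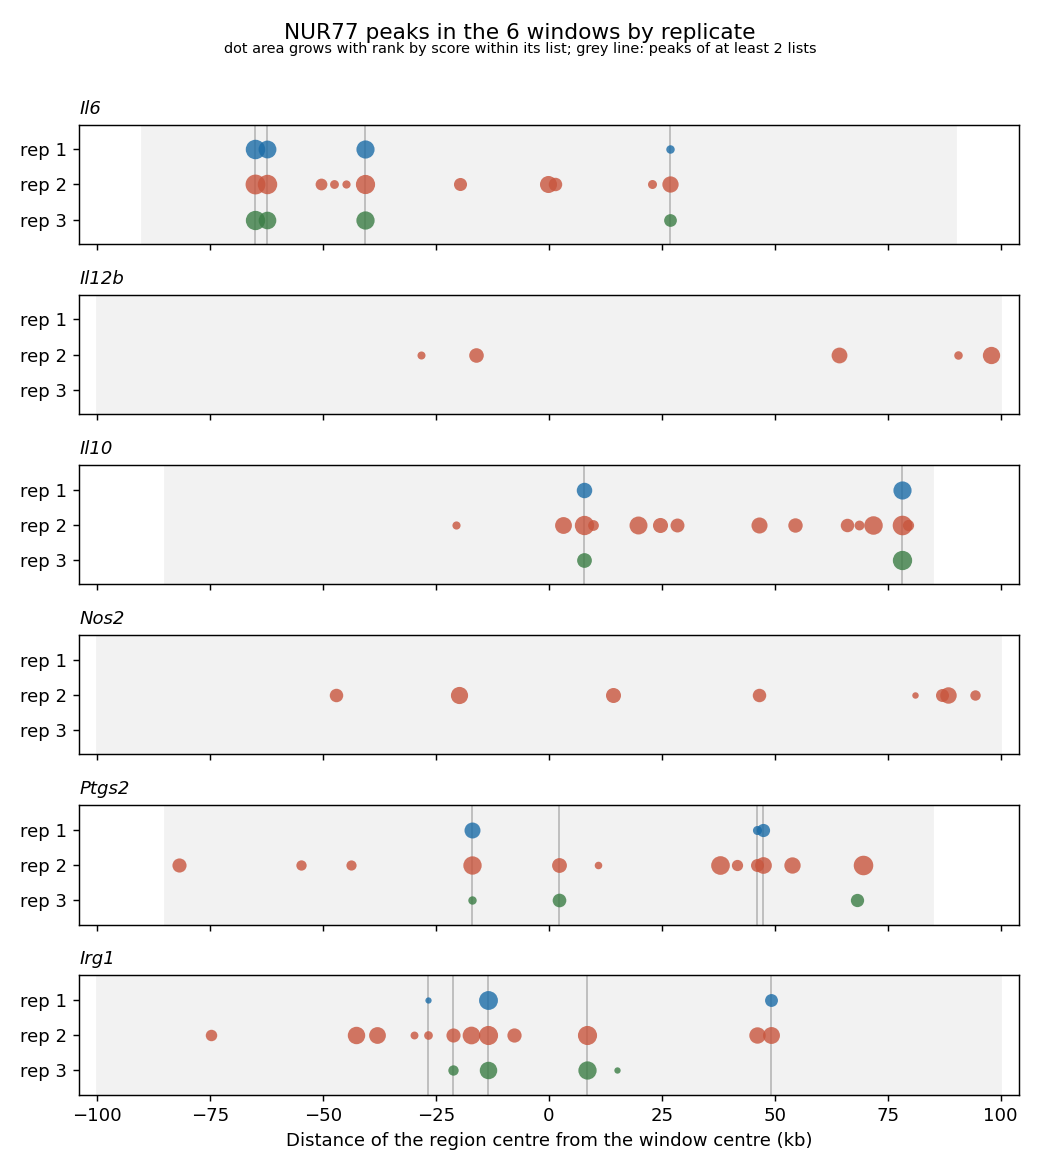
Peaks in the 6 windows, by distance of the region centre from the window centre (x axis, kb) and by replicate (y axis). The dot area grows with the rank of the peak by score within its own list, the grey area is the window and a grey line marks a region of at least 2 replicates. Il12b and Nos2 have dots in the replicate 2 row only, while the 4 other windows have 15 grey lines in all.

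The Il6 window held 4, 11 and 4 peaks in replicates 1, 2 and 3, which averages to 6.33 ± 4.04 (SD, n = 3). Replicate 2 had the most peaks here, as it did over the genome. Divided by the peak density of its own list over the nuclear genome, the density in the window was 8.71-fold, 4.35-fold and 6.66-fold in replicates 1, 2 and 3. All 3 replicates were thus above their genome mean here, by 6.57 ± 2.18-fold (SD, n = 3). Irg1 had 3, 12 and 4 peaks in replicates 1, 2 and 3, which was 5.88-fold, 4.27-fold and 5.99-fold the genome density. Ptgs2 had 3, 12 and 3 peaks, or 6.91-fold, 5.02-fold and 5.29-fold. Il10 had the most replicate 2 peaks of the 6 windows, with 2, 14 and 2, or 4.61-fold, 5.86-fold and 3.52-fold. Ordered by their means, these 4 windows were Il6 (6.57), Ptgs2 (5.74 ± 1.02), Irg1 (5.38 ± 0.963) and Il10 (4.67 ± 1.17), and no neighbours in this order differed by more than their SDs.

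Il12b had 0, 5 and 0 peaks in replicates 1, 2 and 3, and Nos2 had 0, 8 and 0. In replicate 2 this was 1.78-fold and 2.85-fold the genome density, lower than in each of the other 4 windows (4.27-fold or more). In replicates 1 and 3 the genome densities of 2.55 and 3.34 peaks per Mb correspond to 0.510 and 0.667 peaks in a 200 kb tile, and 74.2% and 69.8% of such tiles held none. Among the tiles with a peak of any replicate, 53.5% and 45.7% held none. Of all tiles with a replicate 2 peak, 41.2% had none of replicates 1 and 3. Of tiles with at least 5 replicate 2 peaks, 12.1% had none of replicates 1 and 3, and of tiles with at least 8, 4.55% had none. These sets include tiles with more replicate 2 peaks than Il12b and Nos2. Tiles matched in number and rank of peaks were not examined, so how rare the pattern is was not tested. Over the 6 windows together the density was 4.20-fold, 3.94-fold and 3.48-fold the genome density in replicates 1, 2 and 3, a mean of 3.87 ± 0.365 (SD, n = 3).

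**Figure D2:**
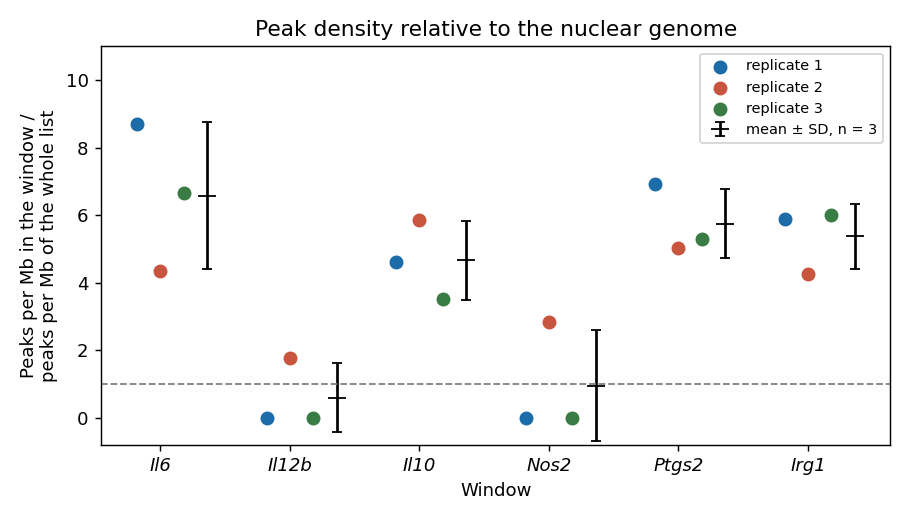
Peaks per Mb in each window divided by peaks per Mb of the same list over the nuclear genome (y axis), for the 6 windows (x axis); dots are replicates, the bar is the mean ± SD of 3, and the dashed line is the genome mean. Il12b and Nos2 are at 0 in replicates 1 and 3, and the other 4 windows lie between 3.52 and 8.71 in every replicate.

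Window by window, the counts were set against tiles of the window's own width. In Il6, 4 regions held all 3 replicates, and 1.11% of the 14738 tiles of 180 kb held as many or more. In Irg1, 5 regions held at least 2 replicates, as did 3.36% of tiles, but only 1 held all 3, as did 21.4%. In Ptgs2, 4 regions held at least 2 replicates (4.61% of 170 kb tiles held as many) and 1 held all 3 (18.98%). In Il10, 2 regions held all 3 replicates (6.88%), and its 14 replicate 2 peaks were matched by 1.28% of tiles. Among tiles with a peak of any replicate, these shares were 2.07% for Il6, and 6.04% and 38.6% for Irg1. They were 8.72% and 35.9% for Ptgs2, and 13.0% and 2.43% for Il10. Among tiles of the window's own chromosome they were 1.42% for Il6, and 2.40% and 15.0% for Irg1. For Ptgs2 they were 5.61% and 21.6%, and for Il10 8.54% and 1.90%. The 4 regions of Il6 and the 2 of Il10 also count as regions of at least 2 replicates. By that measure Il6 was matched by 4.99% of all tiles, above the shares of Ptgs2 and Irg1, and Il10 by 15.2%. Among tiles with a peak of any replicate the shares were 9.30% and 28.8%, and on the window's own chromosome 5.79% and 17.9%. The 5 replicate 2 peaks of Il12b were matched by 25.5% of all tiles and by 38.6% of the tiles of chromosome 11, and the 8 of Nos2 by 13.3% and 23.3%. Among tiles with a peak of any replicate, 45.8% matched Il12b and 23.9% matched Nos2. Irg1 alone had the most regions of at least 2 replicates only by this overlap rule and with windows of 50% of the width. With centres within 100 bp it had 2, against 4 in Ptgs2 and 3 in Il6. Without replicate 2 it had 1, against 3 in Il6, and without replicate 1 or 3 it had 3, against 4 in Il6. By regions of all 3 replicates, Il6 had the highest count under each alternative run on it, tied with Il10 at 5 in the widened windows.

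**Figure D3:**
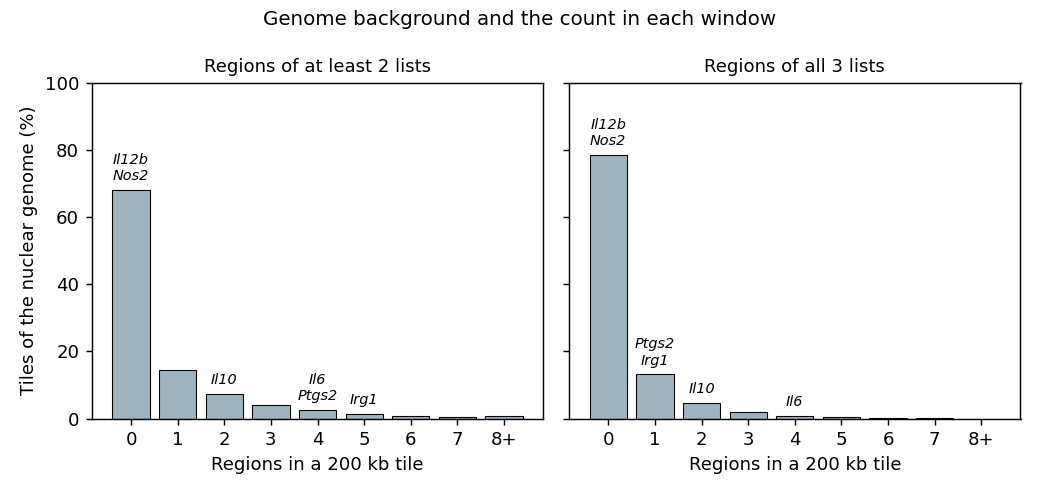
Share of 200 kb tiles of the nuclear genome (y axis, %) by the number of regions they hold (x axis), for regions of at least 2 replicates (left) and of all 3 (right); gene names stand above the bar of their window's count. Il12b and Nos2 are at 0 with most tiles (68.1% and 78.6%), Irg1 is at 5 on the left and Il6 at 4 on the right. The windows of Il6 (180 kb), Il10 and Ptgs2 (170 kb each) are narrower than these tiles.

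The best-ranked region of the Il6 window in each replicate was at 30274523 to 30275225. Its peak scored 176.435, 958.844 and 189.199 in replicates 1, 2 and 3. The score is the authors' value on a scale that is not stated, so it was read as a rank within its list: the best 5.03%, 0.898% and 6.77%. The replicate 2 score is a tie shared by 549 peaks. The next region lay 2.62 kb away between centres, at 30277123 to 30277872, and ranked in the best 22.1%, 5.28% and 24.0% of replicates 1, 2 and 3. The third, at 30298976 to 30299703, ranked in the best 18.99%, 7.99% and 17.9%. There the replicate 1 and replicate 3 peaks did not touch, as 78 bp separated them, and each overlapped the wider replicate 2 peak. Without replicate 2 the Il6 window had 3 regions common to the other replicates. The fourth, at 30366423 to 30366972, was weaker, in the best 90.9%, 36.9% and 65.5%.

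The other 7 peaks of the Il6 window were of replicate 2 alone. The highest, at 30339473 to 30340072, scored 139.292 and ranked in the best 29.8% of its list. Its nearest peak in another replicate was 26.4 kb away. The remaining 6 lay at or beyond the 60.3% mark, so the 4 regions of all 3 replicates took the top 3 places of replicate 2 in this window and the fifth.

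In the Il10 window the region at 132992804 to 132993503 scored 87.074, 656.01 and 188.065 in replicates 1, 2 and 3. These scores rank in the best 18.9%, 3.53% and 6.85% of the lists. The other region, at 132922304 to 132923003, scored 49.581, 453.382 and 50.247, or the best 44.1%, 6.68% and 50.2%. It ranked high in replicate 2 and near the middle of the other lists. These regions had the 2 best replicate 2 ranks of the window and were the sole ones seen in another replicate. The other 12 peaks were of replicate 2 alone, the highest at 132986354 to 132987053 with a score of 254.681 (best 15.2%). It lay 5.80 kb from the nearest replicate 1 peak and 5.87 kb from the nearest of replicate 3.

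The Irg1 window had 1 region of all 3 replicates, at 103436217 to 103436816. It scored 112.819, 383.593 and 87.862 in replicates 1, 2 and 3, the best 11.6%, 8.58% and 25.7% of the lists. The region at 103457965 to 103458666 ranked as well in replicate 2 (379.603, best 8.74%) and in the best 17.7% of replicate 3 (110.527), and had no replicate 1 peak. Replicates 2 and 3 also shared 103428515 to 103429016, in the best 55.2% and 81.0%. Replicates 1 and 2 shared 103498817 to 103499366, in the best 64.6% of replicate 1 and 31.1% of replicate 2. They also shared 103422867 to 103423416, whose replicate 1 score of 22.59 ranks 6775 of 6777, at the very end of the list. The replicate 2 peaks that no other replicate had were led by 103432417 to 103432966, with 175.852 (best 23.2%), between the regions already named. Replicate 3 alone had a peak at 103465015 to 103465314, which scored 22.339, at the 99.7% mark of its list.

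All 5 regions of at least 2 replicates in the Irg1 window were still counted when the window was reduced to 50% of its width. In the Il6 window 2 of 4 were then counted, in Il10 1 of 2 and in Ptgs2 2 of 4. The outermost Irg1 region, at 103498817, lay 49.1 kb from the window centre, just inside the reduced border. The window centres were not tied to a gene position here.

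In the Ptgs2 window the single region of all 3 replicates, at 151927704 to 151928303, scored 53.748, 234.428 and 25.707. It ranked in the best 39.8% of replicate 1, 16.9% of replicate 2 and 91.2% of replicate 3, so it was a weak peak in replicate 3. Replicates 1 and 2 shared a pair of regions with centres 1.38 kb apart, at 151990804 to 151991203 and 151992104 to 151992653. They ranked in the best 87.8% and 62.3% of replicate 1 and in the best 63.7% and 33.1% of replicate 2. Replicates 2 and 3 shared 151947004 to 151947453, in the best 49.5% and 58.9%.

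The best replicate 2 peak of the Ptgs2 window was not among these regions. It lay at 152014204 to 152014853, scored 599.376 and ranked 1553 of 37307, in the best 4.16%. Replicate 1 had no peak within 21.7 kb of it. Replicate 3 had a peak of 100 bp at 152013074 to 152013173, with a score of 40.877, that ended 1.03 kb before it. Of the 27717 replicate 2 peaks without a partner, 86 (0.310%) scored higher. The second-ranked replicate 2 peak, at 151982554 to 151983203 with 279.942 (best 13.5%), was also of replicate 2 alone. In the Il6, Il10 and Irg1 windows, by contrast, the 2 best replicate 2 peaks each had a partner in at least 1 other replicate.

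The Il12b window held 5 replicate 2 peaks, the best of them at 44317557 to 44318156 with a score of 150.894, in the best 27.4% of the list. The others scored 99.658 at 44283907 to 44284406, 74.815 at 44203657 to 44204156, 28.917 at 44310357 to 44310712 and 27.154 at 44191407 to 44191756. The best was 119930 bp from the nearest replicate 3 peak and 1108323 bp from the nearest of replicate 1. Widening the window by 50 kb on each side added no region of at least 2 replicates to Il12b.

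The Nos2 window held 8 replicate 2 peaks, with scores of 22.27 to 145.46 and a median of 60.251. The best was at 78729907 to 78730456, in the best 28.5% of the list, followed by 117.52 at 78838107 to 78838656 and 82.442 at 78763807 to 78764356. The nearest peak of replicate 1 to any of them was 69623 bp away and that of replicate 3 was 69670 bp away. With the window widened by 50 kb on each side, Nos2 had 1 region of all 3 replicates. Neither window had a peak in the best 20% of replicate 2, whereas Il6, Il10, Ptgs2 and Irg1 each had at least 1 in the best 10%. Il12b and Nos2 also held fewer replicate 2 peaks, 5 and 8 against 11 to 14, and rank was not separated from this number. Over the 6 windows, 8 of the 62 replicate 2 peaks were in the best 10%.

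**Figure D4:**
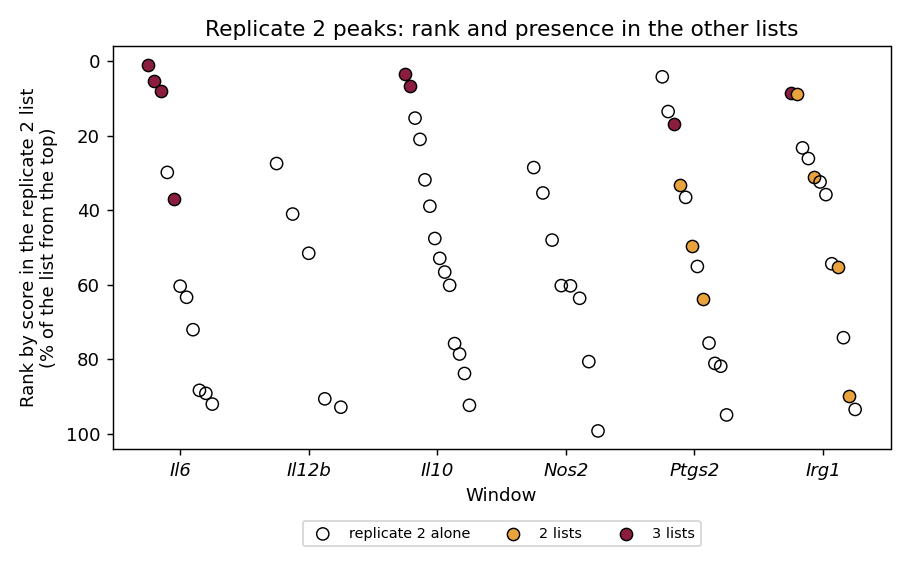
Each replicate 2 peak of the 6 windows (x axis) by its rank in the replicate 2 list (y axis, % of the list from the top); filled circles are peaks in a region with 1 other (orange) or both other replicates (dark red), and open circles are peaks of replicate 2 alone. Il12b and Nos2 begin at 27.4% and 28.5% with open circles only, and the top circle of Ptgs2, at 4.16%, is open.

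Agreement between replicates in the windows was set beside that of the whole lists. Of the 12 replicate 1 peaks, 12 overlapped a peak of another replicate (100%, 95% Wilson interval 75.8 to 100), against 94.3% of the whole list. Of the 13 replicate 3 peaks, 11 did (84.6%, 57.8 to 95.7), against 93.2%. Of the 62 replicate 2 peaks, 15 did (24.2%, 15.2 to 36.2), against 25.7%. Each of the 3 intervals holds the value of its whole list. With 12 and 13 peaks the intervals are too wide to tell the windows from the lists. They treat peaks as independent and cover counting error only, and the 3 shares count the same 15 regions. Replicate 2 was part of all 15 shared regions. Without it, the windows had 7 regions common to the other replicates, 3 in Il6, 2 in Il10 and 1 each in Ptgs2 and Irg1.

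For replicate 2 the share with a partner depends on rank, so its list was also divided by rank into 10 equal groups. In the top group, 7 of 8 peaks in the windows had a partner, against 86.3% of that whole group, the exception being the Ptgs2 peak at 152014204. In the group ranked next, 1 of 3 had a partner, against 61.3%. In the third group, which holds the best peaks of Il12b and Nos2, 0 of 6 had a partner, against 39.8%. In the fourth it was 3 of 9, against 25.3%, and in the fifth 1 of 4, against 16.6%. Over the lower 50% of the list it was 3 of 32, against 5.54%. The numbers per group are too few to tell the windows from the rest of the list.

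Peaks in the windows were of ordinary rank for their lists. The median score was 51.7, 73.5 and 50.2 in replicates 1, 2 and 3, against 44.7, 78.0 and 50.4 for the lists. The 15 regions of at least 2 replicates had widths of 400 to 750 bp and a median of 600 bp, while the median of all 9755 such regions was 649 bp. Peak centres within a region lay a median of 73 bp apart, against 55 bp, and the widest spread, 403 bp, was in the Il6 region at 30298976. Centres lay at most 100 bp apart in 10 of the 15. The nearest other region of at least 2 replicates was a median of 7.75 kb away, against 22.4 kb over the genome. For 8 of the 15 it lay within 10 kb, and regions nearest to each other count from both sides. Neither this count nor that of close centres was taken over the genome. Spacing was not separated from the high peak density of the windows. The distances ran from 1.38 kb for the Ptgs2 pair to 70.5 kb for the Il10 region at 132922304.

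The authors' deposited table of stretches with peaks of at least 2 replicates has 30 intervals in the windows, 11 in Il6, 6 in Il10, 6 in Ptgs2, 7 in Irg1 and 0 in Il12b and Nos2. Joined where they touch, they form 16 stretches, since the Il6 region at 30298976 is divided where replicates 1 and 3 do not meet. That region is 1 of 42 among the 4723 regions of all 3 replicates in which no base is covered by each of them. The replicate names of 18 intervals match those of the lists as written, but these name both replicates 2 and 3 and so cannot show an exchange. Every other interval names replicates 1 and 3 where the lists have 1 and 2. All 30 match once the names of replicates 2 and 3 are exchanged. Which of the sources carries the exchange is not known, and the numbering used here is that of the titles given to the lists, so replicates 2 and 3 may be the other way round throughout. The pair of Ptgs2 regions shared by replicates 1 and 2 is named there for replicates 1 and 3.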

How the data were processed

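Each replicate's file is a list of peaks that the authors called and deposited, with a position and a peak score on a scale not stated. Coordinates are of mm9, per the submitters' processing notes, and input controls were taken from other studies, per the series' design text. The sources used here give neither the aligner nor the settings of the peak caller. The lists hold no read counts, so depth is unknown. The windows and the motifs were chosen with earlier results of these data known. The labels do not say whether the 3 replicates were grown separately.

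Peaks were assigned to a window by centre. Overlapping peaks of different lists (at least 1 bp) were joined, ranks by score were taken within a list with ties averaged, and windows were set beside non-overlapping tiles of 200 kb or of the window's own width, with mm9 lengths from GenomeInfoDb 1.38.1. The text names every region of at least 2 replicates and, in each window, the best-scored peak of 1 replicate alone; further peaks named in the Il12b, Nos2, Ptgs2 and Irg1 windows were picked after their values were seen. No test was run, as there is 1 group and peaks are not replicates. Alternatives were overlap rules, list length, window and tile borders, and leaving out each replicate. Joining was tested on simulated data. The tools were numpy 2.4.6, matplotlib 3.10.9, scipy 1.17.1 and pandas 2.3.3 under Python 3.11.15. The neighbours of Irg1 are not reported here.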

Additional observations from a re-analysis of the deposited data

How the results depend on the processing

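Il12b and Nos2 had 0 regions of at least 2 replicates under every alternative except the windows widened by 50 kb on each side, which gave Nos2 1. Their windows held peaks of replicate 2 alone, far from those of the other lists. Only widening could therefore have changed this count, and the other alternatives do not test it. The higher-scored 50% of each list left 8 regions of at least 2 replicates (15 with whole lists) and 5 of all 3 (8), with 7, 30 and 6 peaks in replicates 1, 2 and 3. The equal number of 6777 best-scored peaks left 9 regions of at least 2 replicates and 11 replicate 2 peaks. Both settings drop the lower-scored peaks, so the length of the lists was not separated from the choice by score. The equal number leaves the list of replicate 1 whole. Windows of 50% of the width held 5 regions of all 3 replicates, 7 replicate 1 peaks and 36 replicate 2 peaks. Widened windows held 24 regions of at least 2 replicates, 14 of all 3, 19 replicate 1 peaks and 21 replicate 3 peaks. Leaving out each replicate gave 7 to 12 regions of both remaining lists, lowest without replicate 2, and 29.3% to 56% of the peaks in the windows then had a partner, against 43.7% with all 3. The share of tiles with a region of at least 2 replicates, 31.9%, was 28.9% with tiles of 170 kb, 33.004% on the 19 autosomes and 57.4% among tiles with a peak of any list. The other 17 of 38 alternative values stayed within 1.5 times the count, or within the Wilson interval of a share. No paired analysis was possible because the series has a single group. As depth is unknown, binding below the calling threshold was not measured.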

Other observations

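The borders of the windows cut through stretches with further peaks. A replicate 2 peak at 30246573 to 30247372 on chromosome 5, 3.03 kb outside the Il6 window, had the tied score of 958.844, as had the first replicate 2 peak inside it, 24.9 kb from the border. The nearest peak outside the Il10 window, 0.479 kb beyond its end, was of replicate 1 and scored 24.265, and the last peak inside it scored 41.806 in replicate 2. With 50 kb added on each side, the Il10 window held 6 regions of at least 2 replicates, 5 of them of all 3, in place of 2. The Irg1 window was followed after 5.04 kb by a replicate 2 peak with a score of 308.132, and the Nos2 window was preceded by one 10.9 kb away with 230.355. The nearest peak after the Il12b window, 23.0 kb away, scored 234.781 in replicate 2, above each of the 5 peaks inside it.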
